A study of Mus with 2 samples.

Results

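Immune checkpoint receptors and ligands were followed in 2 spatial transcriptomes of CT26 tumors, 1 from the control group and 1 from the group given recombinant mouse IL-7 (rIL7 group). The set was chosen by name, with earlier results of these data known, and holds 10 of the 32285 genes in the count tables. Its receptors are Tigit, Lag3, Ctla4, Pdcd1 (encoding PD-1) and Havcr2 (encoding TIM-3). The ligands are Cd274 (PD-L1), Pdcd1lg2 (PD-L2), Cd80 and Cd86, and the last member is Tox, a transcription factor of exhausted T cells. CT26 is a colon carcinoma cell line of BALB/c mice, and 200000 cells were placed under the skin of female BALB/c mice of 6 to 8 weeks, so tumor and host shared a strain. rIL7 (10 µg) or PBS was injected into the peritoneum on days 11 and 13 after transplantation, and tumors were collected on day 15, frozen and cut at 10 µm. Each group had 1 section, so no value below has a replicate check and no test between groups was possible.

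In the assay (Visium), polyadenylated RNA of a section is captured near its 3′ end on a grid of barcoded spots, and reads of the same molecule are collapsed by a random tag, the unique molecular identifier (UMI). A spot can hold several cells of different types, so fewer cells of a type and less RNA per cell cannot be told apart. After filtering, the control section kept 2219 spots with a median of 9623 UMIs, and the rIL7 section kept 1950 spots with a median of 12921.5 UMIs. Levels are therefore given as UMIs per 1000000 UMIs of the section (CPM), and intervals in brackets are 95% intervals for counting error alone. Both CT26 tumor markers were detected in both sections, at a summed 1293 and 1043 CPM. Of 13 T cell genes, 13 were higher in the rIL7 section and 12 at least 2-fold. The shares among the 14313 genes with at least 20 UMIs over the pair of sections were 49.6% and 4.05%. The 3 CD3 genes together went from 15.2 to 49.7 CPM, and 7 macrophage genes together from 2171 to 2283 CPM.

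Checkpoint receptors are brakes on lymphocytes. PD-1 on activated T cells is engaged by PD-L1 and PD-L2, which interferon gamma induces on tumor cells and myeloid cells. CTLA-4 competes with the activating receptor CD28 for CD80 and CD86 on antigen-presenting cells, while TIM-3, LAG-3 and TIGIT bind other partners and accumulate on T cells under lasting antigen exposure.

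The receptors PD-1 and CTLA-4 and both PD-1 ligands had higher transcript levels in the rIL7 section. Pdcd1 was 6.24-fold higher, Ctla4 3.07-fold, Pdcd1lg2 2.60-fold and Cd274 2.15-fold, while Cd80 was slightly lower. Of the 9 members that reached 20 UMIs over the pair of sections, 8 were higher in the rIL7 section, as were 49.6% of the 14313 genes with as many UMIs, and 1 was lower. At least 2-fold higher were 5 members, against 4.05% of all these genes and 5.32% of those within the members' own range of UMIs, and at least 1.5-fold higher were 6, against 7.72%. The median ratio was 2.15 over the 9 members and 0.998 over all these genes. To show how even a section was, it was divided at its median row and column into 4 quadrants, which are not replicates. For 4 members, Pdcd1, Ctla4, Cd274 and Pdcd1lg2, every quadrant of the rIL7 section lay above every quadrant of the control section, an arrangement shown by 9.74% of all genes and 10.4% of those in the members' range of UMIs. The opposite arrangement held for 0 members and 9.77% of all genes.

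**Figure D1:**
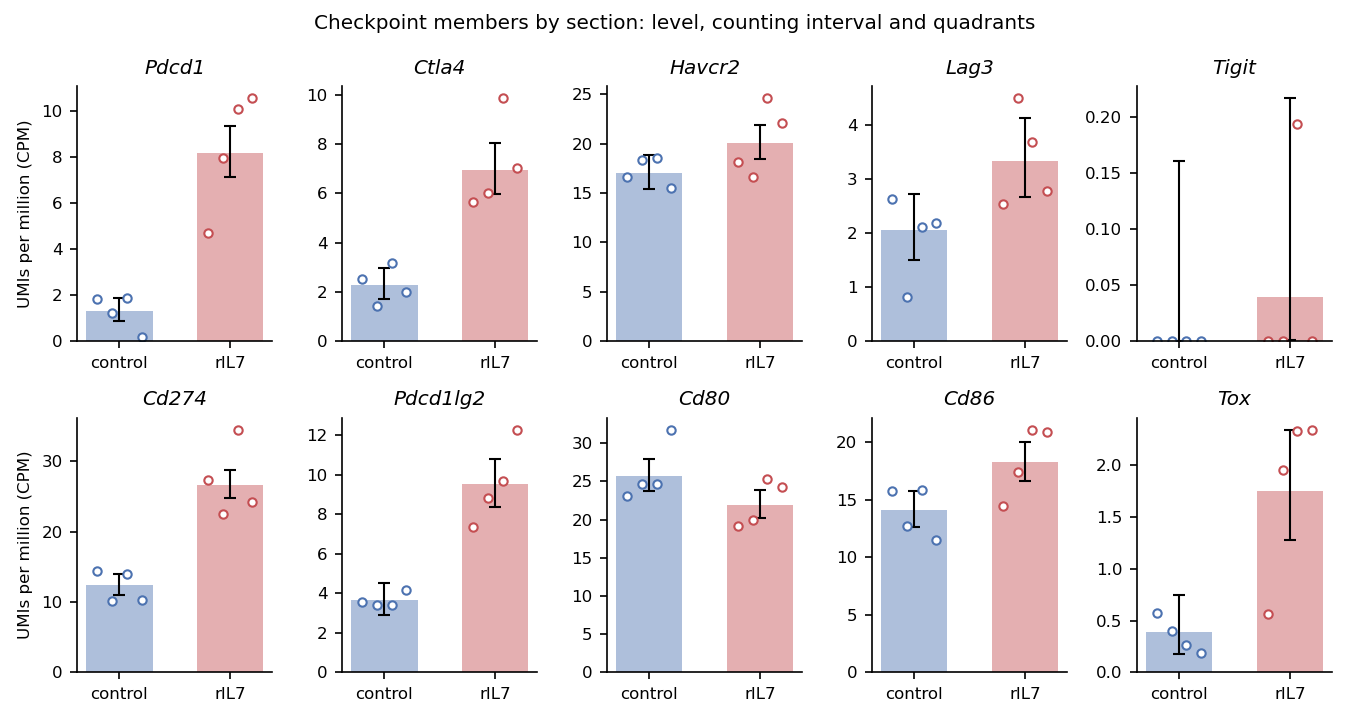
Level of each member in CPM (vertical axes, each from 0) in the control and rIL7 sections. Bars are the section level, black lines the 95% counting interval and open circles the 4 quadrants. The quadrants of Pdcd1, Ctla4, Cd274 and Pdcd1lg2 do not overlap between sections, whereas those of Havcr2, Lag3, Cd80, Cd86 and Tox do.

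Pdcd1 encodes PD-1, the receptor through which PD-L1 and PD-L2 restrain T cells (ENSMUSG00000026285, chr1:94038305-94052553 in GRCm38). The control had 30 UMIs of it (1.31 CPM) and the rIL7 section 210 (8.16 CPM), a ratio of 6.24 [4.25 to 9.49]. The control quadrants ran from 0.183 to 1.85 CPM and the rIL7 quadrants from 4.67 to 10.5 CPM. Transcripts were spread thinly in both sections, a control spot holding at most 1 UMI and an rIL7 spot at most 4. Spots with Pdcd1 made up 1.35% of control spots and 9.54% of rIL7 spots. With every spot thinned to 5900 UMIs to equalise depth, and shallower spots left out (217 and 81 spots), the shares were 0.741% and 4.66%.

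Ctla4, the receptor that outcompetes CD28 for CD80 and CD86 (ENSMUSG00000026011, chr1:60909025-60915832), had 52 control UMIs (2.27 CPM) and 179 rIL7 UMIs (6.96 CPM). It was 3.07-fold higher [2.24 to 4.27], and its quadrants spanned 1.41 to 3.17 CPM against 5.66 to 9.88 CPM. Lag3, a receptor for MHC class II (ENSMUSG00000030124, chr6:124904359-124912434), had 47 and 86 UMIs, or 2.05 and 3.34 CPM, a ratio of 1.63 [1.13 to 2.38]. Its quadrants overlapped slightly, at 0.807 to 2.63 CPM against 2.55 to 4.50 CPM, so the sections were not apart in every quadrant.

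Havcr2 encodes TIM-3, a receptor of exhausted T cells that macrophages and dendritic cells also carry (ENSMUSG00000020399, chr11:46454931-46481255). With 391 and 517 UMIs it supplied most receptor UMIs, and its levels of 17.0 and 20.1 CPM were close, the rIL7 to control ratio being 1.18 [1.03 to 1.35] and the quadrants overlapping. The sum of the receptors, 1.70-fold higher [1.53 to 1.90], was therefore weighted towards this gene, whose own ratio was lower. Without Havcr2, a choice made after seeing the data, the sum of the other receptors was 3.29-fold higher [2.70 to 4.03].

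Tigit, which competes with the activating receptor CD226 for the poliovirus receptor (ENSMUSG00000071552, chr16:43626137-43665125), was listed at 0 control UMIs and 1 rIL7 UMI. A count of 0 allows up to 0.131 CPM at the control depth, so no comparison of this receptor was possible. Whether the reference used for counting covers the captured 3′ end of Tigit was not tested. Its ligand Pvr was well covered, at 118 and 133 CPM, and its competitor Cd226 had 12 and 57 UMIs, 4.24-fold higher in the rIL7 section [2.25 to 8.68].

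Tox, which drives the exhaustion program of chronically stimulated T cells (ENSMUSG00000041272, chr4:6686353-6991557), had 9 control UMIs (0.392 CPM) and 45 rIL7 UMIs (1.75 CPM). The ratio of 4.46 had a wide interval [2.15 to 10.4], and 1 rIL7 quadrant, at 0.566 CPM, lay within the control range.

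Among the ligands, the genes of PD-L1 and PD-L2 differed more between the sections than Cd80 and Cd86, the ligands of CD28 and CTLA-4. Cd274 (ENSMUSG00000016496, chr19:29362107-29388095) went from 285 UMIs (12.4 CPM) to 686 UMIs (26.7 CPM), a ratio of 2.15 [1.87 to 2.47]. Its control quadrants ran from 10.1 to 14.4 CPM and its rIL7 quadrants from 22.5 to 34.5 CPM. Its neighbor on chromosome 19, Pdcd1lg2 (ENSMUSG00000016498, chr19:29410919-29472927), went from 84 UMIs (3.66 CPM) to 245 UMIs (9.52 CPM), which is 2.60-fold more [2.02 to 3.37], and its quadrants ran from 3.43 to 4.20 CPM against 7.36 to 12.3 CPM. Both PD-1 ligands were thus higher in every quadrant of the rIL7 section.

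Cd80 (ENSMUSG00000075122, chr16:38457430-38495958) was the only one of the 9 members that was lower in the rIL7 section, going from 591 UMIs (25.7 CPM) to 565 (22.0 CPM), a ratio of 0.853 [0.759 to 0.959]. Its quadrants overlapped, at 23.1 to 31.8 CPM against 19.1 to 25.4 CPM. The share of spots with Cd80 was 23.0% and 24.9% as counted, and 14.2% and 12.4% at equal depth. Cd86 (ENSMUSG00000022901, chr16:36568956-36666158), the other ligand of CD28 and CTLA-4, was 1.29-fold higher [1.12 to 1.5], at 14.1 and 18.3 CPM, again with overlapping quadrants. The costimulatory ligands thus showed no common direction, and the sum of all 4 ligands was 1.37-fold higher [1.27 to 1.47].

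Since T cell transcripts were also higher, the receptors were set beside the CD3 genes (Cd3d, Cd3e and Cd3g) of the same spots. Per 100 CD3 UMIs, Pdcd1 had 8.57 control and 16.4 rIL7 UMIs, 1.91-fold more [1.28 to 2.86]. Ctla4 had 14.9 and 14.0, a ratio of 0.941 [0.676 to 1.31]. Relative to CD3, Pdcd1 was thus higher, and the interval of Ctla4 included 1. Lag3 had 13.4 and 6.72 per 100 CD3 UMIs, a ratio of 0.5003 [0.344 to 0.728], and Havcr2 had 112 and 40.4, a ratio of 0.362 [0.303 to 0.431]. All receptors together were lower per CD3 UMI (ratio 0.522 [0.445 to 0.612]). Without Havcr2, which cells other than T cells express, the ratio was 1.01 [0.804 to 1.27].

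The values of Ctla4, Lag3 and the sum without Havcr2 relative to 1 depended on the T cell genes chosen. Set beside all 13 T cell genes, an alternative added after seeing the data, Pdcd1 was 3.02-fold higher [2.05 to 4.43] and Ctla4 1.48-fold higher [1.09 to 2.02]. Lag3 had a ratio of 0.788 [0.551 to 1.13], no longer apart from 1, and Havcr2 a ratio of 0.570 [0.497 to 0.653]. All receptors together had a ratio of 0.823 [0.735 to 0.921], and 1.59 [1.30 to 1.94] without Havcr2. The list of 13 was uneven, since 1 gene, Trbc2, supplied 2193 of its 3683 control UMIs and 2870 of its 8549 rIL7 UMIs. Trbc2 was 1.17-fold higher in the rIL7 section, while the other 12 genes were each at least 2-fold higher. The list was not tried without Trbc2, so the part of this gene in the differences from the CD3 values was not tested.

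The ligands were set beside the 7 macrophage genes in the same way. Per 100 macrophage UMIs, Cd274 had 0.572 control and 1.17 rIL7 UMIs, a ratio of 2.04 [1.78 to 2.35], and Pdcd1lg2 was 2.47-fold higher [1.93 to 3.17]. Cd86 was 1.23-fold higher [1.07 to 1.42] and Cd80 had a ratio of 0.811 [0.722 to 0.911]. The PD-1 ligands therefore differed by about as much per macrophage UMI as in CPM. Which cells carried these transcripts was not tested.

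The position of the members within the tumor was then examined. The rim was defined as the 2 outermost grid rings of the main piece of tissue, which held 401 control and 330 rIL7 spots, and the interior as the rest, 1806 and 1599 spots. In the rIL7 section, 8 of the 9 members were denser at the rim, each with an interval above 1, and 5 of them at least 2-fold, against 8.58% of all genes. In the control section, 8 members were also denser at the rim, but 3 had an interval above 1, and 2 (Lag3, and Tox with 3 rim UMIs) had a ratio of at least 2, as had 2.65% of all genes. The median rim to interior ratio of the members was 2.30 in the rIL7 section and 1.39 in the control, while that of all genes was 0.975 and 0.963. The median gene was thus slightly sparser at the rim in both sections. The share of all genes with an interval above 1 was not counted, so the counts of such members have no background.

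Pdcd1 had the highest rim to interior ratio of the members in the rIL7 section. Its level there was 23.2 CPM at the rim (91 UMIs) and 5.41 CPM in the interior (117 UMIs), a ratio of 4.29 [3.22 to 5.69]. In the control section the rim had 6 UMIs (1.34 CPM) and the interior 24 (1.31 CPM), a ratio of 1.03 [0.344 to 2.58]. The rim thus held 43.8% of Pdcd1 UMIs in the rIL7 section and 20% in the control. Between the sections, Pdcd1 was 17.3-fold higher at the rim [7.64 to 48.3] and 4.14-fold higher in the interior [2.65 to 6.73]. The rim ratio of the rIL7 section was 4.17 times that of the control [1.64 to 10.6].

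Pdcd1lg2 followed the same layout, with 23.4 CPM at the rIL7 rim against 7.03 CPM in the interior, a ratio of 3.34 [2.55 to 4.35]. In the control the ratio was 1.67 [0.995 to 2.73]. Cd274 was 1.82-fold denser at the rIL7 rim [1.52 to 2.17], at 43.1 and 23.7 CPM, and 1.11-fold in the control [0.821 to 1.48]. Pdcd1, Cd274 and Pdcd1lg2 were the 3 members whose rim ratio differed between the sections beyond counting error (1.63 times for Cd274 [1.17 to 2.28] and 1.99 times for Pdcd1lg2 [1.16 to 3.42]). The share of all genes with such a difference was not counted, so this count of members has no background.

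Ctla4 was 2.44-fold denser at the rIL7 rim [1.74 to 3.39] and 1.23-fold in the control [0.589 to 2.40]. Lag3 had nearly the same rim ratio in both sections, 2.30 [1.38 to 3.72] in the rIL7 section and 2.19 [1.12 to 4.15] in the control. Havcr2 was also denser at the rim in both, at 1.57 [1.26 to 1.93] and 1.39 [1.1 to 1.76], as was Cd86, at 1.70 [1.36 to 2.12] and 1.45 [1.11 to 1.86]. A denser rim was thus a feature of both sections for these 3 members. Tox had a ratio of 3.15 [1.59 to 6.03] in the rIL7 section, and its 9 control UMIs were too few to place. Cd80 was sparser at the rim in both sections, with ratios of 0.775 [0.593 to 0.998] in the rIL7 section and 0.811 [0.645 to 1.01] in the control.

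**Figure D2:**
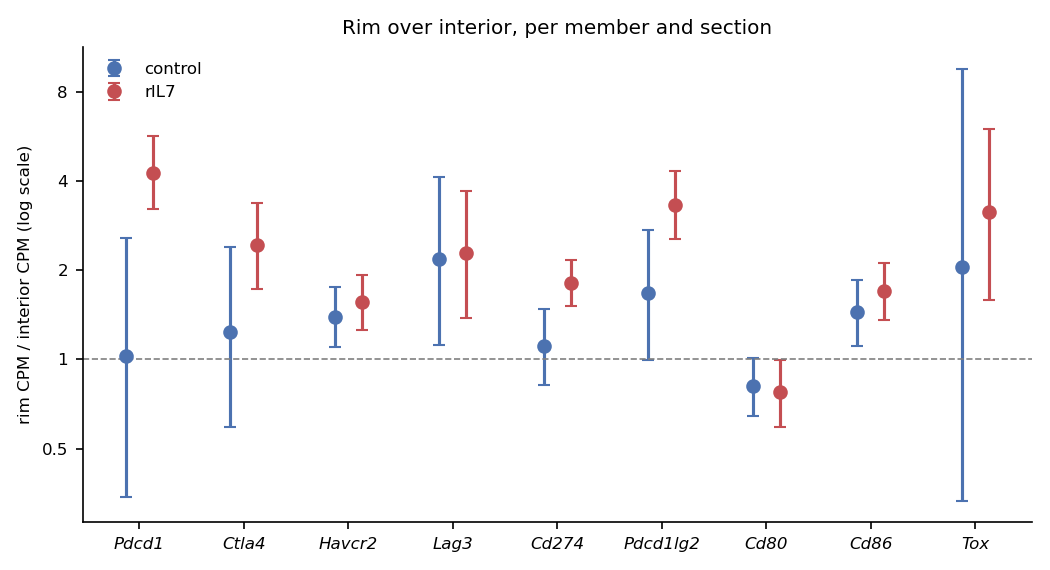
Rim CPM divided by interior CPM (vertical axis, log scale) for 9 of the 10 members (Tigit left out), in the control (blue) and rIL7 (red) sections, with 95% counting intervals. Pdcd1 is at 4.29 in the rIL7 section and 1.03 in the control, while Lag3 is at 2.30 and 2.19 and Cd80 lies below 1 in both.

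Many genes of immune and stromal cells were denser at the rIL7 rim. The CD3 genes had a rim to interior ratio of 3.49 there against 1.16 in the control, the 13 T cell genes 2.48 against 1.14, MHC class II genes 3.24 against 1.19 and macrophage genes 1.74 against 1.1. Fibroblast genes had 1.91 against 0.947, endothelial genes 2.34 against 1.28, neutrophil genes 0.783 against 0.539 and the 2 CT26 tumor markers 0.691 against 0.916. The fibroblast genes were divided at the rIL7 rim. The collagen genes Col1a1 and Col3a1 were denser there (4.75 and 2.60), while Pdgfra and Dcn were sparser (0.556 and 0.821). The part of cell composition in the rim values of the members was not tested. Within the rIL7 section, Pdcd1 had 18.6 UMIs per 100 CD3 UMIs at the rim and 15.1 in the interior. Ctla4 had 11.0 and 15.8, and all receptors together 58.0 and 90.6. Per 100 macrophage UMIs, Cd274 had 1.21 at the rIL7 rim and 1.16 in the interior, and Pdcd1lg2 0.660 and 0.343. Per 100 CD3 UMIs of the rim itself, Pdcd1 had 7.79 control and 18.6 rIL7 UMIs, a ratio of 2.38 [1.01 to 5.63], and in the interior the ratio was 1.71 [1.08 to 2.71]. Lag3 per CD3 UMI was lower at the rIL7 rim (ratio 0.246 [0.125 to 0.481]), and its interior ratio was 0.703 [0.444 to 1.11].

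Ring by ring, Pdcd1 in the rIL7 section went from 24.8 CPM in the outermost ring and 21.8 in the second to 9.38 in ring 3, 6.10 in rings 7 to 8 and 3.26 from ring 12 inward (the centre). In the control it stayed between 0.561 and 2.02 CPM in all ring classes. Pdcd1lg2 went from 27.6 CPM in the outermost rIL7 ring to 5.40 CPM in the centre. Cd274 lay at 43.5 CPM in the outermost ring, 14.8 CPM [11.3 to 19.1] in rings 9 to 11 and 25.4 CPM [22.0 to 29.1] in the centre. Ctla4 likewise had 18.2 CPM, 2.76 CPM [1.38 to 4.94] and 5.40 CPM [3.91 to 7.27] there. Both genes were thus lowest in rings 9 to 11, and for Ctla4 the intervals of those rings and the centre overlapped. Havcr2 peaked in the second ring of the rIL7 section, at 37.4 CPM [29.6 to 46.7], against 19.3 CPM [13.4 to 26.8] in the outermost ring. The rim was not even along its length, since the 4 rim quadrants of the rIL7 section had 13.3, 22.4, 18.3 and 42.5 CPM of Pdcd1 and 16.3, 20.4, 18.3 and 42.5 CPM of Pdcd1lg2. The fourth quadrant of that rim was thus the densest for both genes.

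**Figure D3:**
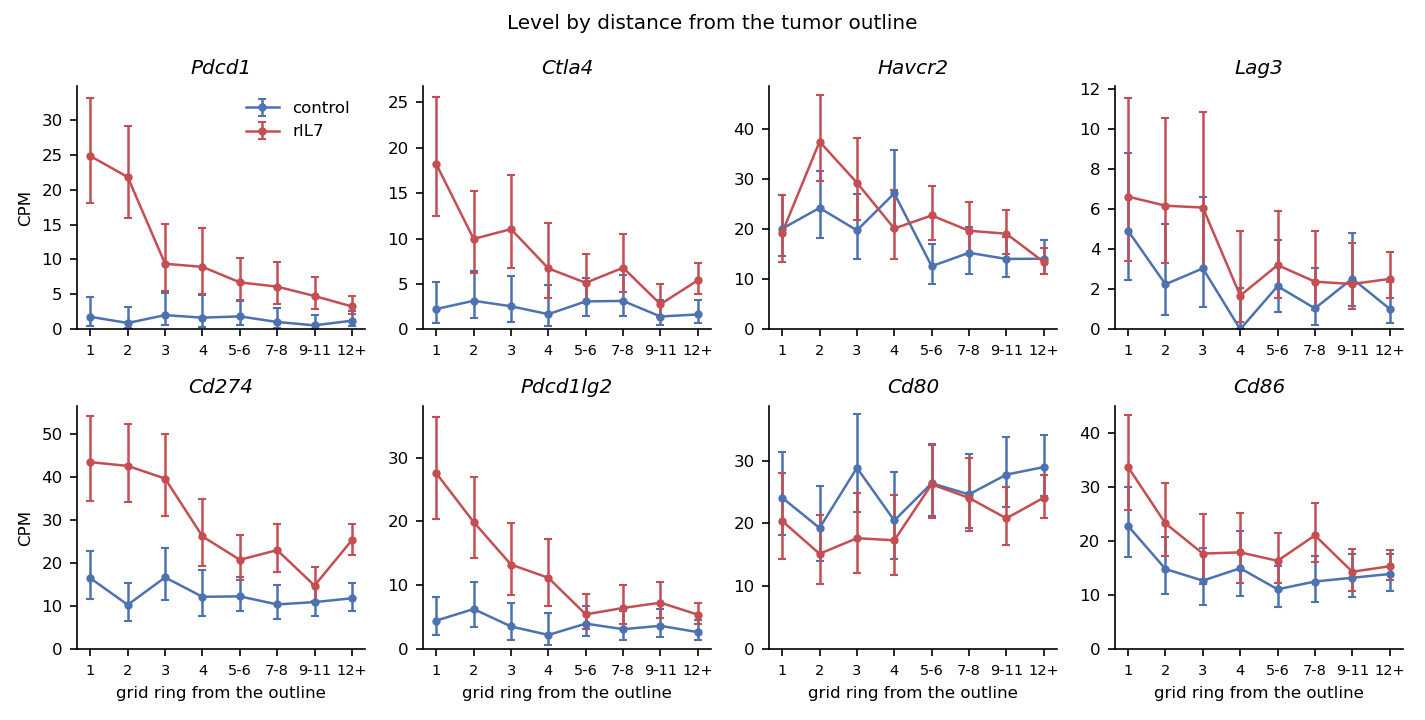
Level in CPM (vertical axes, from 0) of 8 members by grid ring, counted from 1 at the tumor outline inward, in the control (blue) and rIL7 (red) sections with 95% counting intervals. Pdcd1 and Pdcd1lg2 are densest in the 2 outermost rings of the rIL7 section, Cd274 is higher again in the centre (25.4 CPM), and Cd80 shows no outer peak.

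Receptor and ligand transcripts were next sought in the same spots. The number of spots expected to hold both genes was computed with each gene spread over the spots in proportion to their depth. In the rIL7 section, 186 spots held Pdcd1 and 688 held Cd274 or Pdcd1lg2, and 81 held both, which was 43.5% of Pdcd1 spots and 11.8% of ligand spots. The expected number was 71.7, a ratio of 1.13 [0.897 to 1.40]. With the expectation made separately for rim and interior the ratio was 1.01 [0.803 to 1.26]. PD-1 and its ligands thus met in 81 spots, about as many as their abundance at the rim and in the interior gave. In the control section 5 of 30 Pdcd1 spots held a ligand, against 5.09 expected.

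By ligand, Pdcd1 met Cd274 in 61 rIL7 spots against 56.9 expected, a ratio of 1.07 [0.820 to 1.38]. It met Pdcd1lg2 in 32 against 24.02, a ratio of 1.33 [0.911 to 1.88] that was 1.02 [0.698 to 1.44] with rim and interior taken separately. Ctla4 shared 36 spots with Cd80 against 45.3 expected (ratio 0.795 [0.557 to 1.1]) and 40 with Cd86 against 37.7 (ratio 1.06 [0.757 to 1.44]). For CTLA-4 and both of its ligands, 68 of 165 Ctla4 spots held Cd80 or Cd86 against 72.1 expected in the rIL7 section, and 18 of 49 against 18.1 in the control. Havcr2 and Lgals9, a ligand of TIM-3, shared 283 spots against 277 expected. For each of these receptor and ligand pairs the interval included 1.

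**Figure D4:**
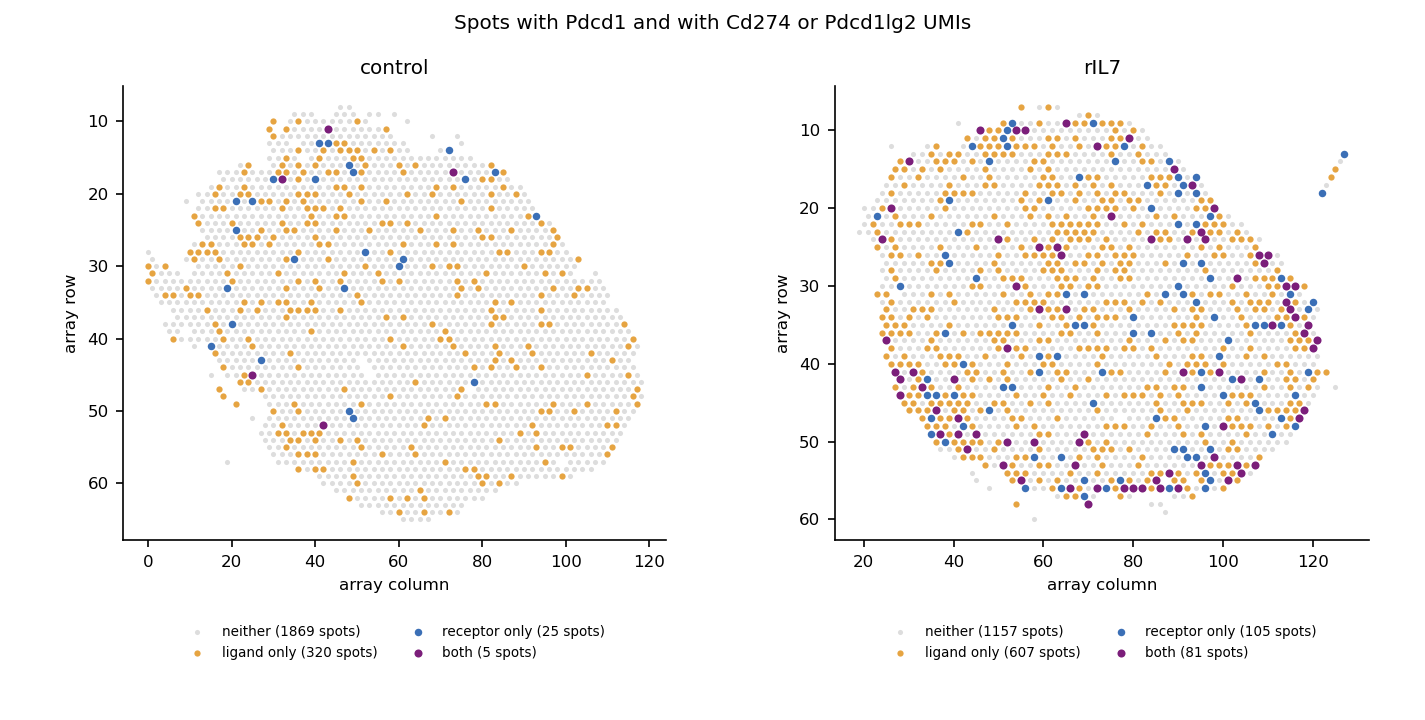
Kept spots of both sections on the array grid (axes are array column and row), colored by whether they held Pdcd1, a PD-1 ligand transcript (Cd274 or Pdcd1lg2), both or neither. The rIL7 section has 81 spots with both, many along its outline, and the control section has 5. The 12 control and 21 rIL7 spots outside the main piece were left out of rim and interior.

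Pdcd1 was also set beside T cell transcripts. In the rIL7 section it shared 41 spots with Cd4, the coreceptor of helper T cells, against 15.1 expected, a ratio of 2.72 [1.95 to 3.69], where 2.25% of 10687 genes reached 1.5. With rim and interior taken separately the ratio was 1.63 [1.17 to 2.21]. It shared 60 spots with Cd8a, the coreceptor of cytotoxic T cells, against 45.1, a ratio of 1.33 [1.01 to 1.71], and 1.17 [0.890 to 1.51] with rim and interior separate. Macrophages can also carry Cd4 transcripts. Ctla4 and Foxp3, the defining factor of regulatory T cells, shared 13 spots against 5.95 expected, a ratio of 2.19 [1.16 to 3.74], where 1.43% of genes reached 1.5 with Ctla4. The control section had 0 spots with both Pdcd1 and Cd4 (0.602 expected) and 0 with both Ctla4 and Foxp3 (0.802 expected), which were too few to compare. In that section 10.9% of genes reached 1.5 with Pdcd1 and 3.72% with Ctla4. The neighboring ligand genes Cd274 and Pdcd1lg2 shared 82 rIL7 spots against 69.4 expected (ratio 1.18 [0.940 to 1.47]) and 14 control spots against 10.9 (ratio 1.28 [0.701 to 2.15]), where 0.0561% and 0.78% of genes reached 1.5 with Cd274.

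The surroundings of Pdcd1 were compared within each zone of the rIL7 section. Spots with Pdcd1 had a 1.58-fold higher CD3 level than spots without it at the rim [1.30 to 1.91] and a 1.47-fold higher level in the interior [1.15 to 1.85]. MHC class II was 1.43-fold higher at the rim [1.39 to 1.46] and 1.18-fold in the interior [1.14 to 1.22]. The intervals in this paragraph leave out variation between spots and places. MHC class II alone ran from 2322 to 3630 CPM over the rIL7 quadrants. The interferon gamma target Cxcl9, a chemokine that attracts T cells, was 1.28-fold higher at the rim [1.15 to 1.42] and 1.24-fold in the interior [1.08 to 1.42]. Spots with Cd274 showed no such CD3 difference (0.903 at the rim [0.746 to 1.09] and 1.06 in the interior [0.900 to 1.24]), and Cxcl9 was 1.16-fold higher at the rim [1.05 to 1.28] and 1.14-fold in the interior [1.05 to 1.24]. Spots with Pdcd1lg2 had 1.42-fold more Cxcl9 in the interior [1.27 to 1.60].

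**Figure D5:**
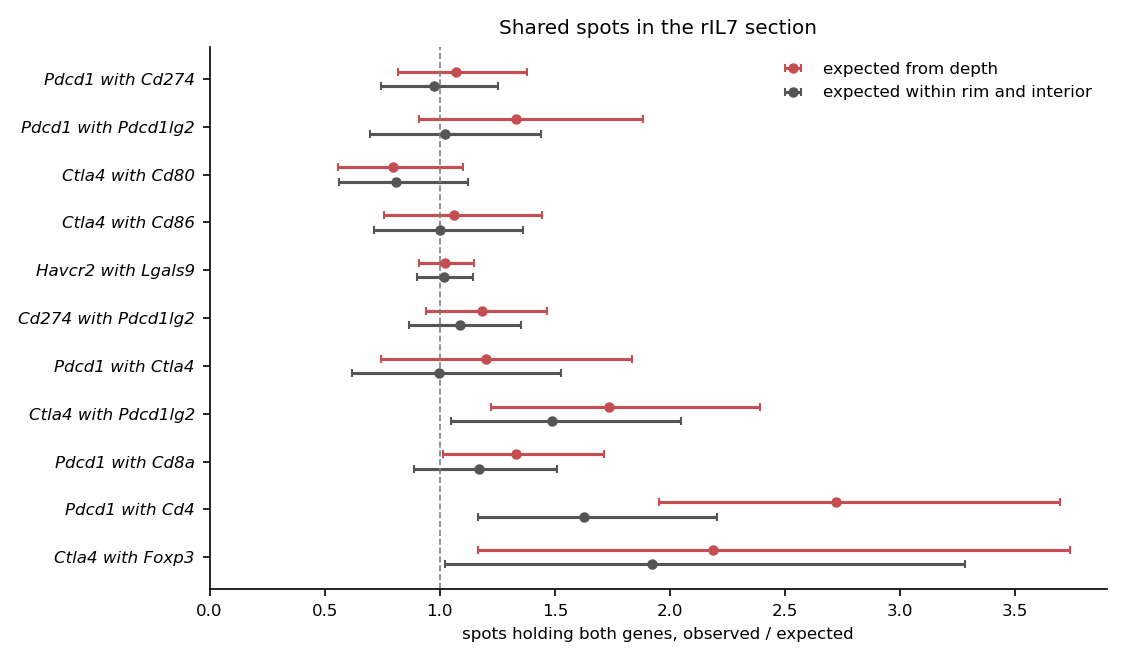
Spots of the rIL7 section that held both genes of a pair, divided by the expected number (horizontal axis), with 95% counting intervals. Red points take the expectation from spot depth and grey points from depth within rim and interior. The pairs of a receptor and its ligand have red points from 0.795 to 1.33 with intervals that include 1, whereas Pdcd1 with Cd4 lies at 2.72 and 1.63.

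Over all 36 pairs of the 9 members, the median ratio of observed to expected shared spots was 1.11 in the rIL7 section and 0.976 in the control. Pairs of a receptor with Tox, which was in only 9 control spots, had medians of 1.95 and 0. Without Tox the medians had no common direction. They were 1.15 and 1.33 for receptor pairs, 1.07 and 0.976 for ligand and receptor, and 0.974 and 1.02 for ligand pairs. Over all genes compared, the medians were 0.945 and 1.05 with Pdcd1, 0.935 and 0.895 with Ctla4, and 0.975 and 0.978 with Cd274. The 6 pairs of receptors in the rIL7 section lay between 1.002 and 1.22, each with an interval that included 1. With rim and interior taken separately they lay between 0.954 and 1.13, and 3 of the 6 were below 1 (Pdcd1 with Ctla4, Pdcd1 with Havcr2 and Havcr2 with Lag3).

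Other genes of the same pathways were counted by list. For comparison, 49.6% of the 14313 genes with at least 20 UMIs were higher in the rIL7 section, and 4.05% at least 2-fold. Of 10 binding partners and competitors of the members, 8 had at least 20 UMIs, 7 of these were higher in the rIL7 section and 2 at least 2-fold. These were Cd28, the activating receptor for CD80 and CD86 (0.654 and 3.19 CPM, 4.88-fold [2.79 to 9.11]), and Cd226. Ceacam1, a proposed partner of TIM-3, and Lgals3, a proposed partner of LAG-3, had the lowest ratios, 0.826 [0.460 to 1.48] and 1.04 [1.02 to 1.06]. Of 16 other inhibitory receptors and ligands, 9 were higher and 7 lower, not far from the share over all genes. At least 2-fold higher were 4, among them Cd96 (3.57-fold) and Klrc1, the NKG2A receptor of NK and cytotoxic T cells (3.54-fold). The inhibitory receptors Lair1 and Pilra had ratios of 0.826 and 0.858.

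The same shares of all genes, 49.6% higher and 4.05% at least 2-fold, apply to the next 3 lists. Of 8 costimulatory receptors and ligands, 6 were higher and 2 lower, and 3 at least 2-fold higher. Cd27 and Icos, both receptors of T cells, were 3.36-fold [2.47 to 4.66] and 2.29-fold higher [1.72 to 3.07]. The ligands Icosl and Tnfsf9 had ratios of 0.771 [0.636 to 0.934] and 0.792 [0.666 to 0.941]. Of 10 transcription factors of activation and exhaustion, 8 were higher and 4 at least 2-fold, led by Tcf7, a factor of naive and stem-like T cells (4.37-fold [2.65 to 7.58]), and Tbx21, the factor of type 1 effector cells (4.07-fold [2.76 to 6.17]). The early-response gene Nr4a1 had a ratio of 0.724 [0.683 to 0.769]. Of 10 genes of the interferon gamma axis, 9 were higher and 3 at least 2-fold, with Cxcl9 at 3.01-fold [2.83 to 3.20] and Gbp2 at 2.43-fold [2.25 to 2.61], while Ciita, the activator of MHC class II genes, had a ratio of 0.915 [0.798 to 1.05].

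The genes whose level ran most like that of the members were sought over 16 ring classes, 8 per section, among 7613 genes. The summed receptors were most like Psmb10, a subunit of the immunoproteasome (Pearson r = 0.965), Rnf114 (r = 0.957) and the complement gene C4b (r = 0.957). Without Havcr2, the summed receptors were most like Pim1 (r = 0.989), Gbp2b (r = 0.980) and Irf8 (r = 0.971), chosen after seeing the data, and none of these genes was among the first 3 with Havcr2. The summed ligands were most like the kinase gene Pim1 (r = 0.945), the immunoglobulin light chain gene Igkc (r = 0.944) and the actin regulator Vasp (r = 0.936). The ring classes come from 2 libraries and share their depth, so these values are descriptions.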

How the data were processed

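The deposited tables give, for each gene and spot, an unnormalized UMI count, which the authors made with Space Ranger 1.1.0 against mm10 (GRCm38). Spots over tissue were kept with under 10% mitochondrial UMIs and more than 200 genes, the study's own limits, which left out 2 control spots and 1 rIL7 spot. Totals were 22951678 (control) and 25729233 UMIs (rIL7). The spot barcodes, gene names and array positions were used as deposited. Image scale factors were not used.

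UMIs were summed over spots and divided by the section total (CPM). Intervals at 95% were exact Poisson for a sum, exact binomial (Clopper-Pearson) for a ratio of 2 sums or a share, normal on the log scale for a ratio of ratios and for values per CD3, T cell or macrophage UMI, and exact Poisson for spots holding both genes. They cover counting error only and leave out differences between spots, mice, sections and libraries. With 1 section per group no test was run. Genes entered counts from 20 UMIs over the pair of sections, and a count of 0 was set to a floor of 3 UMIs when a ratio was formed. Rings were numbered on the array grid from the outline of the largest connected piece.

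The members and gene lists were chosen with earlier results of these data known. The text names all 10 members, up to 4 genes per other list (those with the largest and smallest ratio), and the 3 genes most like the summed receptors or ligands by Pearson r of log2 (CPM + 1) among genes averaging 20 CPM or more. Cd226, Pvr, Lgals9, Cd4, Cd8a, Foxp3 and the Cxcl9 values by spot were given for their link to a member. Trbc2 and the 4 fibroblast genes were named after seeing the data, since their lists were uneven. Coordinates are from RefSeq on GRCm38, matched by symbol for 10 of 10 members. Scripts were tested on simulated data and run with Python 3.11.15 and scipy 1.17.1. Scaling alternatives came from edgeR 4.0.16 and DESeq2 1.42.0 in R 4.3.3, used for scaling factors only. Other alternatives changed the spot filter, the weight of spots, the rim width and the expectation for shared spots.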

Additional observations from a re-analysis of the deposited data

How the results depend on the processing

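Of 75 alternatives over 12 results, 62 left the value within its counting interval or, for a count of members, within 1.5 times, and 9 of the 75 were added after seeing the data. The section ratio of the summed receptors (1.70) was 3.29 without Havcr2, and that of the ligands (1.37) was 1.27 in the interior alone and 1.80 without Cd80. Receptors per CD3 UMI (0.522) were at 0.638 in the interior alone. Without Havcr2 the value was 1.01 [0.804 to 1.27], an interval that included 1. With 13 T cell genes in place of CD3 all receptors were at 0.823, and at 1.59 without Havcr2 as well. Trbc2 supplied 2193 of the 3683 control UMIs of these 13 genes, and the list was not tried without it. The rim ratio of the receptors in the rIL7 section (2.23) was 1.90 with a rim of 1 ring and 3.12 without Havcr2. That of the ligands was 1.60 in the rIL7 section and 2.00 without Cd80. In the control it was 1.08, and it was 1.24 both with a rim of 1 ring and with each spot weighted the same, and 1.33 without Cd80. Apart from the removal of a named gene, the other denominator and the restriction to the interior, the cause was not tested. Members at least 2-fold higher numbered 5, with 6 at 1.5-fold or more and 4 in the interior alone. No paired analysis was possible because each group had 1 section. Scaling by TMM or size factors changed no direction. Few UMIs limit the control values of Pdcd1 and Tox, which rest on 30 and 9, and Tigit, at 0 and 1, could not be compared.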

Other observations

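Some pairs outside the known receptor and ligand partners shared more or fewer spots than expected. All pairs named here were picked for their ratio after the values were seen, so the intervals are descriptions. Ctla4 and Pdcd1lg2 met in 37 spots of the rIL7 section against 21.3 expected, a ratio of 1.74 [1.22 to 2.39] that was 1.49 [1.05 to 2.05] with rim and interior taken separately, and in 5 spots of the control against 2.09. Lag3 and Pdcd1lg2 met in 7 control spots against 1.96, a ratio of 3.56 [1.43 to 7.34], and in 11 rIL7 spots against 11.0. In the rIL7 section Tox met Ctla4 in 10 spots against 4.15 and Lag3 in 6 against 2.15, but with rim and interior taken separately both intervals included 1 (1.87 [0.857 to 3.56] and 2.42 [0.888 to 5.27]). Lag3 and Cd80 met less than expected there, in 13 spots against 23.4, a ratio of 0.556 [0.296 to 0.951] that was 0.581 [0.309 to 0.993] with rim and interior separate. Havcr2 and Cd80 met in 96 spots against 119, a ratio of 0.810 [0.656 to 0.989] and 0.827 [0.670 to 1.01] with rim and interior separate.

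In the control section Cd274 shared 48 spots with Cd83, a marker of mature dendritic cells, against 24.8 expected, a ratio of 1.93 [1.43 to 2.56]. Cd83 was taken because it ranked first for Cd274 in that section, where 0.78% of genes reached 1.5 with Cd274. In the rIL7 section the pair met in 93 spots against 85.4, a ratio of 1.09 [0.879 to 1.33]. Whether the sections differ in this was not tested.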
